A study of Mus musculus with 12 samples.

Results

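The genes described are 10 negative feedback regulators of MAP kinase signalling, namely the dual-specificity phosphatases Dusp1, Dusp2, Dusp4, Dusp5 and Dusp6, the Sprouty genes Spry1, Spry2 and Spry4, and the Spred genes Spred1 and Spred2. They were taken by symbol from the deposited table of 22298 genes, and all 10 were found and passed the low-count filter that kept 11904 genes for testing. RNA was sequenced from 4T1, a mammary carcinoma line of BALB/c mice. Cells carried 1 of 2 guide RNAs against Cop1, called Cop1 sgRNA1 and Cop1 sgRNA2. Control cells carried a guide against Rosa26, where disruption is tolerated. Each population received IFNγ at 20 ng/ml for 24 hours or vehicle, which gave 6 groups of 2 libraries and 12 libraries in all. The sources used here do not say whether a population was a pool or 1 clone, where the guides cut, or whether the 2 libraries of a group came from separate cultures. The p-values below therefore measure only the spread between these libraries, which may be technical.

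ERK, the last kinase of the RAS, RAF and MEK cascade, is switched off by phosphatases and inhibitors whose genes its own activity induces. DUSP proteins remove phosphate from the threonine and the tyrosine of the activation loop of MAP kinases, Sprouty proteins act between growth factor receptors and RAF, and Spred proteins bring neurofibromin to RAS at the membrane. Because several of these transcripts follow ERK activity, Dusp6, Spry2 and Spry4 are commonly read as an output of the pathway. COP1 is a ubiquitin ligase whose known substrates include ETS-family factors such as ETV4 and ETV5, c-JUN and C/EBP proteins. IFNγ, a cytokine of T and NK cells, acts through a cell-surface receptor and JAK kinases.

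Cop1 mRNA was lower with both guides. With IFNγ it was 60.7 and 60.2 CPM with sgRNA1 and 32.3 and 33.6 CPM with sgRNA2, against 80.4 and 83.3 CPM in Rosa26 cells, where CPM is the count per 1000000 counts of the TMM-scaled library total. In vehicle it was 59.1 and 63.1 CPM with sgRNA1 and 34.5 and 34.7 CPM with sgRNA2, against 89.7 and 98.2 CPM in Rosa26 cells. No library with a Cop1 guide reached either Rosa26 library, and sgRNA2 gave the lower level in both treatments. The mean of both guides fell by 0.88 ± 0.050 on the log2 scale with IFNγ (SE, edgeR adjusted p = 2.34e-18) and by 1.03 ± 0.048 in vehicle (edgeR adjusted p = 6.01e-21). With both libraries of a group summed and the 2 guides, which differ in Cop1 level, as the replicates, the Cop1 differences were not called (edgeR adjusted p = 0.466 with IFNγ and 0.413 in vehicle). Transcript loss is not a measure of protein, which was not analysed here.

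The libraries held 19378070 to 32609717 gene counts, and replicates differed by a coefficient of variation of 3.21% beyond counting noise. With so small a spread many small changes pass the test, so every count of feedback genes is given beside the share of all 11904 genes that passed the same test. The feedback genes were chosen with earlier results of these data known, so these counts are descriptions only. All 6 epithelial markers were detected, with a summed level of 2178 to 3123 CPM over the 12 libraries. The 6 leukocyte markers summed to 0.0427 to 0.308 CPM, with Cd3e and Adgre1 at 0 in every library. Fibroblast markers summed to 15.7 to 24.3 CPM and endothelial markers to 0.240 to 0.799 CPM. Summed epithelial markers were 2553 to 2607 CPM in Cop1-guide cells and 2178 to 2188 CPM in Rosa26 cells with IFNγ, and 3068 to 3123 CPM in Cop1-guide cells and 2770 to 2826 CPM in Rosa26 cells in vehicle. Single epithelial markers went both ways, with 4 called higher and Cdh1 called lower for Cop1 loss in each treatment, by -0.29 with IFNγ and -0.48 in vehicle on the log2 scale. Summed fibroblast markers were 15.7 to 17.1 CPM in Cop1-guide cells and 16.7 to 17.1 CPM in Rosa26 cells with IFNγ, and 16.9 to 22.6 CPM in Cop1-guide cells and 22.9 to 24.3 CPM in Rosa26 cells in vehicle, where both tested ones, Col1a1 and Pdgfra, were called lower. The part of these markers in the results below was not tested.

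Dusp6 and Dusp4 were the most abundant of the 10 transcripts in every group when levels were divided by transcript length. In CPM per kilobase of exonic length, Dusp6 stood at 120.7 and 118 in sgRNA1 and sgRNA2 cells with IFNγ and at 80.3 in Rosa26 cells with IFNγ, and at 79.5, 73.3 and 45.7 in sgRNA1, sgRNA2 and Rosa26 cells in vehicle. Dusp4 stood at 43.9, 51.6 and 69.5 CPM per kilobase in the same order with IFNγ and at 54.1, 56.8 and 70.4 in vehicle. Dusp4 thus led in Rosa26 vehicle cells and Dusp6 led in the other 5 groups. In Rosa26 vehicle cells the next levels were 23.0 for Spred2, 20.0 for Spry2, 18.9 for Dusp5 and 17.5 CPM per kilobase for Spred1. Spry1 followed at 9.99, Dusp1 at 5.29, Spry4 at 2.97 and Dusp2 at 0.365 CPM per kilobase. Dusp2 was scarce throughout, with 17 to 43 counts per library, and its precision is limited by counting error.

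**Figure D1:**
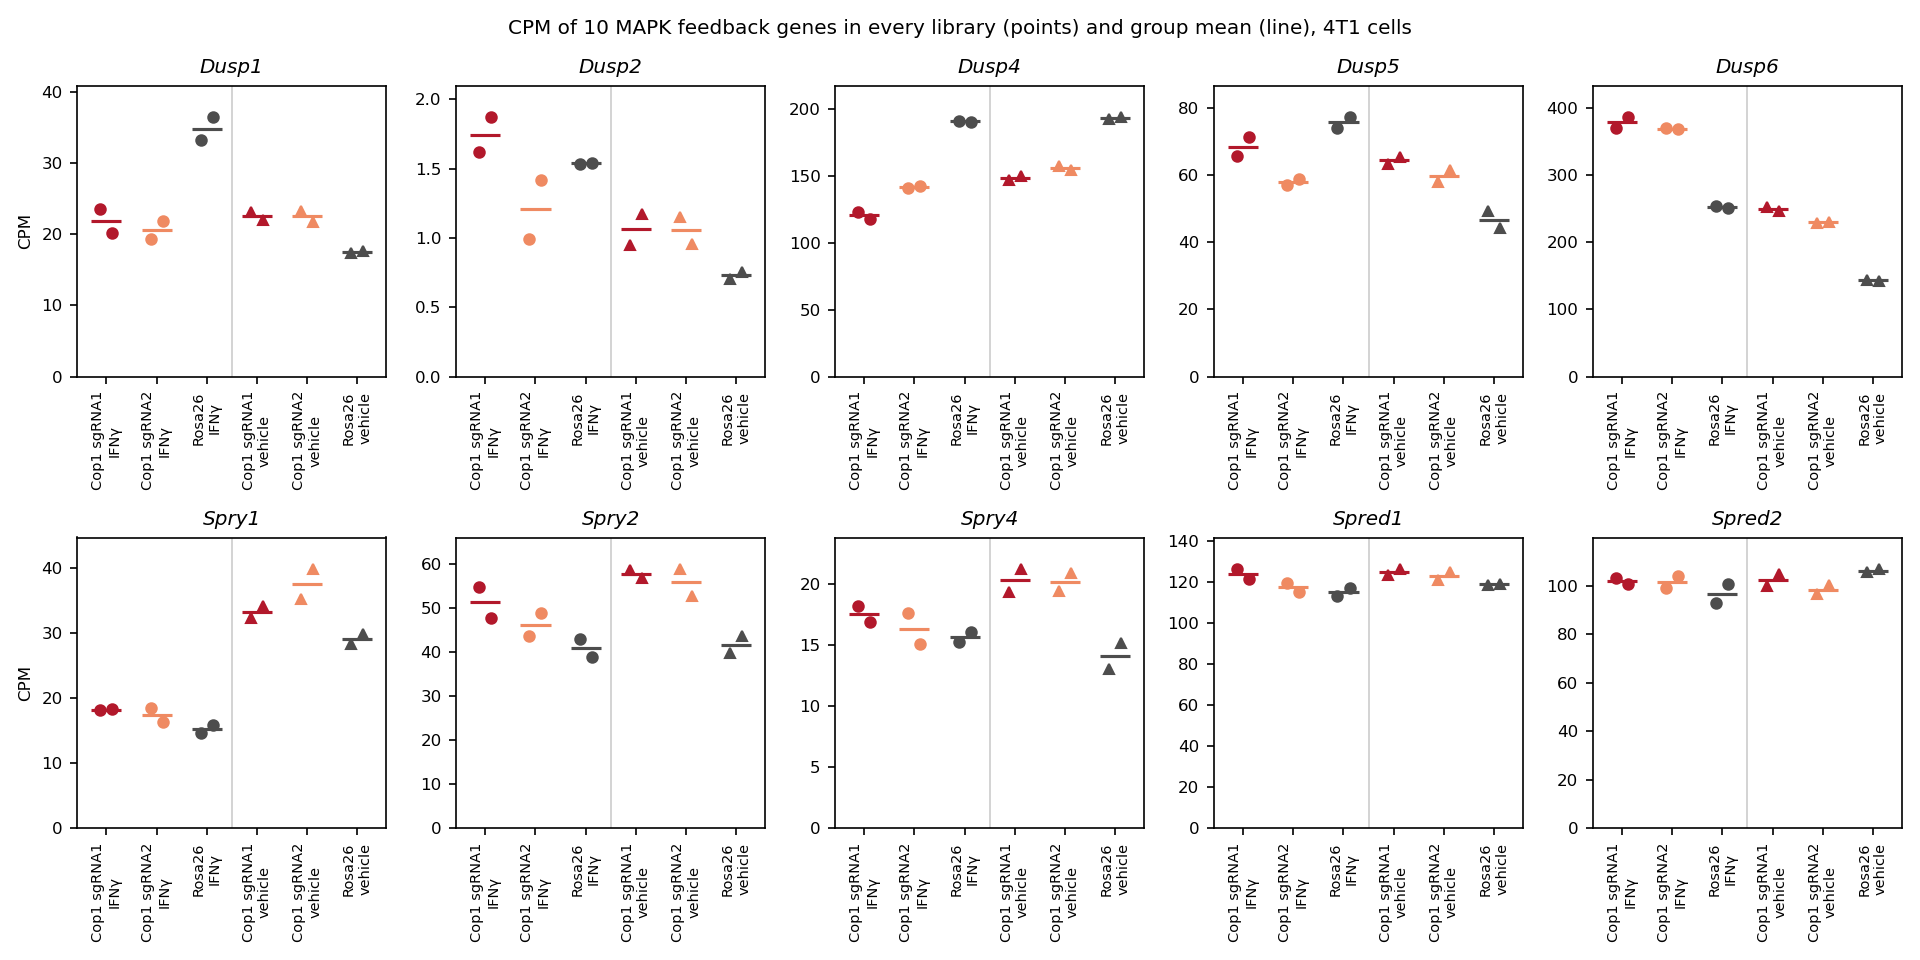
CPM on the vertical axis of each panel, from 0, for each of the 10 feedback genes; circles are IFNγ libraries and triangles vehicle libraries, in red for Cop1 sgRNA1, orange for sgRNA2 and grey for Rosa26, and the line is the mean of the 2 libraries. Dusp6 is lowest in Rosa26 vehicle cells and highest in Cop1-guide cells with IFNγ, whereas Dusp1 and Dusp5 are lowest in Rosa26 vehicle cells and highest in Rosa26 cells with IFNγ.

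The first comparison asked how loss of Cop1 changed the feedback genes in cells without cytokine. Dusp6, Spry4, Spry2, Dusp5, Dusp1 and Spry1 rose in Cop1-guide cells against Rosa26 cells, Dusp4 fell, and Dusp2, Spred1 and Spred2 did not pass the test. Folds of the risen genes ran between 1.22 for Spry1 and 1.67 for Dusp6, and Dusp4 was at 0.787 of its Rosa26 level. In vehicle 7 of the 10 genes were called at an adjusted p under 0.05, where 35.8% of all tested genes were called. The 6 that rose stand beside 16.6% of all genes called higher, and the 1 that fell beside 19.2% called lower. The median log2 change was 0.39 over the 10 genes and -0.01 over all genes. For each of the 10 genes all 4 Cop1-guide libraries lay on one side of both Rosa26 libraries, 8 above and 2 below, and the same was true of 46.1% of all tested genes. RNA came from bulk cells, so a change in every cell and a change in a share of the cells cannot be told apart.

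The second comparison asked the same of cells treated with IFNγ. Dusp6, Spry2 and Spry1 were higher in Cop1-guide cells than in Rosa26 cells, Dusp1, Dusp4 and Dusp5 were lower, and Dusp2, Spry4, Spred1 and Spred2 did not pass the test. Dusp6 was at 1.48 and Dusp1 at 0.609 of the Rosa26 level. In all 6 of the 10 genes were called, where 40.6% of all tested genes were. The 3 that were higher stand beside 19.8% of all genes called higher, and the 3 that were lower beside 20.7% called lower. The median log2 change was 0.07 over the 10 genes and -0.00 over all genes. The Cop1-guide and Rosa26 libraries did not overlap for 6 of the 10 genes, against 48.6% of all genes. These counts are not far above their background.

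**Figure D2:**
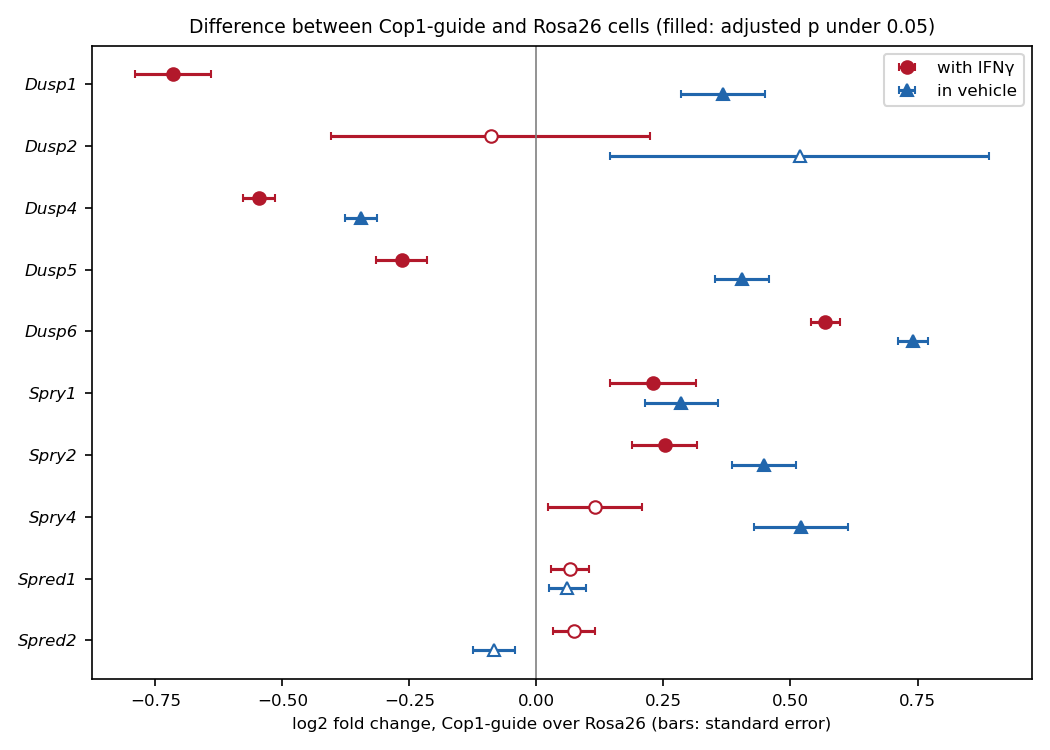
Log2 fold change of each feedback gene, Cop1-guide over Rosa26 cells, on the horizontal axis, with IFNγ (red circles) and in vehicle (blue triangles); bars are standard errors and filled marks have an adjusted p under 0.05. Dusp1 and Dusp5 lie right of 0 in vehicle and left of 0 with IFNγ, Dusp6 lies right of 0 and Dusp4 left of 0 in both.

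The third question was how the genes answered IFNγ and whether Cop1 loss changed that answer. In Rosa26 cells Dusp2, Dusp1, Dusp6 and Dusp5 rose with IFNγ, by folds of 2.09, 1.99, 1.76 and 1.62, while Spry1 fell to 0.524 and Spred2 to 0.910 of the vehicle level. These are 6 of 10 genes, 4 higher and 2 lower, where 32.8% of all genes were called, 16.6% higher and 16.2% lower. In Cop1-guide cells Dusp6 alone of the 10 passed the test as higher, with a fold of 1.56, and Spry1, Spry4, Spry2 and Dusp4 fell to 0.505, 0.840, 0.857 and 0.859 of the vehicle level. These are 5 of 10 genes, 1 higher and 4 lower, where 34.2% of all genes were called, 18.1% higher and 16.1% lower. The median log2 change over the 10 genes was -0.06 in Cop1-guide cells and 0.07 in Rosa26 cells.

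The difference between the response of Cop1-guide cells and that of Rosa26 cells was tested as an interaction. It was called for Dusp1, Dusp5, Dusp4 and Dusp6, 4 of the 10 genes, where 5.74% of all tested genes were called. All 4 were negative, so each response was lower in Cop1-guide cells, beside 2.36% of all genes called negative and 3.38% called positive. The median interaction was -0.20 over the 10 genes and 0.01 over all genes. Spry4 had an interaction of -0.40 ± 0.13 with an edgeR adjusted p of 0.0598 and did not pass, though it passed without the second vehicle library of Rosa26 cells (adjusted p = 0.0492), the first vehicle library (0.0476) or the first IFNγ library (0.0352) of sgRNA2 cells. Both libraries of a group were also summed, so that the 2 guide populations served as the replicates of Cop1 loss. No gene then had a called interaction by edgeR, while 434 were called by DESeq2 on the separate libraries.

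**Figure D3:**
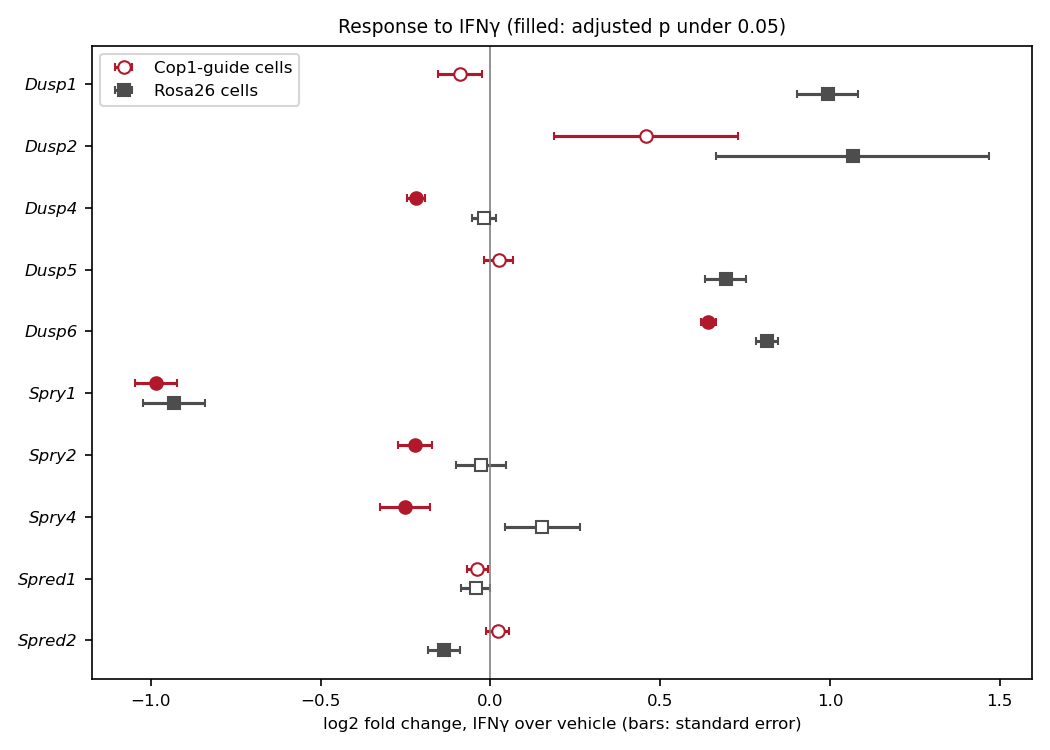
Log2 fold change of each feedback gene, IFNγ over vehicle, on the horizontal axis, in Cop1-guide cells (red circles) and Rosa26 cells (grey squares); bars are standard errors and filled marks have an adjusted p under 0.05. Dusp1 and Dusp5 respond at 0.99 and 0.69 in Rosa26 cells and lie near 0 in Cop1-guide cells, while Spry1 falls in both, by -0.99 in Cop1-guide and -0.93 in Rosa26 cells.

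Dusp6 encodes a cytoplasmic phosphatase (MKP-3) that acts on ERK in preference to JNK and p38, and lies at chr10:99263231-99267489 of GRCm38 on the plus strand. With IFNγ its level was 370.2 and 386 CPM in sgRNA1 cells and 369.5 and 367 CPM in sgRNA2 cells, against 253 and 250.3 CPM in Rosa26 cells. In vehicle it was 252 and 246 CPM in sgRNA1 cells and 229 and 230.5 CPM in sgRNA2 cells, against 144 and 142 CPM in Rosa26 cells. Every Cop1-guide library exceeded both Rosa26 libraries of the same treatment, and the level of vehicle-treated sgRNA1 cells overlapped that of IFNγ-treated Rosa26 cells. Cop1 loss shifted Dusp6 by 0.57 ± 0.028 on the log2 scale with IFNγ (SE, edgeR adjusted p = 2.39e-20) and 0.74 ± 0.030 in vehicle (edgeR adjusted p = 3.49e-23). IFNγ raised Dusp6 by 0.64 ± 0.022 in Cop1-guide cells (edgeR adjusted p = 1.57e-26) and by 0.81 ± 0.034 in Rosa26 cells (edgeR adjusted p = 9.30e-24). The transcript was thus higher in Cop1-guide than in Rosa26 cells and higher with IFNγ than in vehicle. The highest group means, 378 ± 11.0 and 369 ± 1.45 CPM (SD, n = 2 each), were in Cop1-guide cells with IFNγ. The interaction was small at -0.17 ± 0.040 (edgeR adjusted p = 0.00495). Its call was lost without the second vehicle library of Rosa26 cells (-0.16) and with libraries summed by population (edgeR adjusted p = 0.999). Over the 12 libraries left out in turn its value lay between -0.19 and -0.16.

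Dusp1 (MKP-1) is a nuclear, immediate early phosphatase of p38, JNK and ERK, annotated at chr17:26505590-26562128 on the minus strand. With IFNγ it measured 23.6 and 20.2 CPM in sgRNA1 cells and 19.3 and 21.8 CPM in sgRNA2 cells, against 33.2 and 36.5 CPM in Rosa26 cells. In vehicle it measured 23.2 and 22.1 CPM in sgRNA1 cells and 23.3 and 21.8 CPM in sgRNA2 cells, against 17.3 and 17.7 CPM in Rosa26 cells. The 4 Cop1-guide groups overlapped their neighbours in the order of levels and lay between the extremes, which were both Rosa26 groups. Cop1 loss shifted Dusp1 by -0.72 ± 0.075 with IFNγ (SE, edgeR adjusted p = 1.85e-10) and 0.37 ± 0.083 in vehicle (edgeR adjusted p = 0.000432). The response to IFNγ was -0.09 ± 0.066 in Cop1-guide cells (edgeR adjusted p = 0.312) and 0.99 ± 0.091 in Rosa26 cells (edgeR adjusted p = 3.28e-12), a difference of -1.08 ± 0.11 (edgeR adjusted p = 2.67e-09). This was the interaction of largest size among the 10 genes. With libraries summed by population the vehicle difference had an adjusted p of 0.0508 and the interaction one of 0.0775 in edgeR.

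Dusp5, a nuclear phosphatase specific for ERK, is annotated at chr19:53529109-53542431 on the plus strand and had the same order of extremes. With IFNγ it measured 65.6 and 71.5 CPM in sgRNA1 cells and 57.1 and 58.9 CPM in sgRNA2 cells, against 74.2 and 77.3 CPM in Rosa26 cells. Vehicle gave 63.4 and 65.5 CPM in sgRNA1 cells and 57.9 and 61.5 CPM in sgRNA2 cells, against 49.4 and 44.1 CPM in Rosa26 cells. Cop1-guide libraries lay below both Rosa26 libraries with IFNγ and above both in vehicle. Cop1 loss shifted Dusp5 by -0.27 ± 0.050 with IFNγ (SE, edgeR adjusted p = 3.47e-05) and 0.40 ± 0.054 in vehicle (edgeR adjusted p = 6.02e-08). The response to IFNγ was 0.02 ± 0.042 in Cop1-guide cells (edgeR adjusted p = 0.709) and 0.69 ± 0.060 in Rosa26 cells (edgeR adjusted p = 7.79e-13). The interaction of -0.67 ± 0.074 was called (edgeR adjusted p = 1.03e-08). With libraries summed by population the IFNγ-treated Cop1 difference had an adjusted p of 0.119 and the interaction one of 0.427 in edgeR. The antisense gene AC137853.2 shares 547 bp, 22.1% of the exonic length, with Dusp5 and has no line in the count table, and the strand setting of the counting is not given in the sources used here.

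Promoter sequence was read for these 3 genes because Dusp1 and Dusp5 shared a pattern that Dusp6 did not. Promoter sequence from the RefSeq table of GRCm38.p6 was used for 8 of the 10 genes. No window of Dusp4 or Spry4 is reported here. For the 8 genes the 250 bases before each RefSeq start were searched on both strands. The Dusp1 window is chr17:26508473-26508722 on the minus strand, the Dusp5 window chr19:53528895-53529144 and the Dusp6 window chr10:99262981-99263230, both on the plus strand. Each is written 5′ to 3′, and capitals mark a cyclic AMP response element (CRE) in Dusp1 and a pair of CArG boxes, the letters bound by serum response factor, in Dusp5.
Dusp1: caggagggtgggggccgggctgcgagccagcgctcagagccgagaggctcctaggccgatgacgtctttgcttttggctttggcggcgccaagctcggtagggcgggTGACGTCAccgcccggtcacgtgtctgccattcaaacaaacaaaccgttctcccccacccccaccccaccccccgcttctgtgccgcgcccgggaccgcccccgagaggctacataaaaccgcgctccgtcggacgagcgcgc
Dusp5: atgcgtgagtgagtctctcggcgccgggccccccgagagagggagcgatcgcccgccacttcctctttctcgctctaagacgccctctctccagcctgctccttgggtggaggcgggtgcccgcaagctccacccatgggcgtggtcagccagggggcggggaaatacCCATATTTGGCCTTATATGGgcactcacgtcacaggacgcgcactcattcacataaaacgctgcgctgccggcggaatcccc
Dusp6: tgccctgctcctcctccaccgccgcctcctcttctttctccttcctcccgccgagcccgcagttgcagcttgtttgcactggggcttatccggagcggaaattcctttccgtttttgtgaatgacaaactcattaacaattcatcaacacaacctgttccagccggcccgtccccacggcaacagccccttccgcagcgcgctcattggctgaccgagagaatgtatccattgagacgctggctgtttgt
The CRE, TGACGTCA, lies at -143 to -136 from the RefSeq start of Dusp1 and occurs in 1.55% of the 32851 promoter windows of the table. The Dusp1 window lies inside the wider span annotated above for this gene, whose minus-strand start is at 26562128. The position therefore holds for the RefSeq start only. The Dusp5 window also runs past the annotated start of its gene, at 53529109. The CArG boxes of Dusp5, CCATATTTGG at -82 to -73 and CCTTATATGG at -72 to -63, abut without sharing a base, and 1.47% of windows hold a CArG box. The CArG motif was added to the search after the sequences had been seen. None of the 8 windows held the ETS letters CCGGAA (12.03% of all windows), the AP-1 letters TGANTCA (6.75%), the C/EBP letters TTGCNNAA (9.56%) or the gamma-activated sequence letters TTCNNNGAA (7.02%). CCGGAA is a strict form of the ETS site, whose core is GGAA, and other forms were not searched. The Dusp5 window above holds that core on the other strand, in acttcct. All of these are matches of letters in a short window and show no binding, and a missing match does not show that a site is absent.

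Dusp4 (MKP-2), a nuclear phosphatase of ERK and JNK at chr8:34807297-34819894 on the plus strand, was the one gene of the 10 that was called lower in Cop1-guide cells in both treatments. With IFNγ it measured 123 and 118 CPM in sgRNA1 cells and 141 and 142 CPM in sgRNA2 cells, against 191 and 190.1 CPM in Rosa26 cells. Vehicle-treated cells had 147 and 149.7 CPM in sgRNA1 cells and 157 and 154 CPM in sgRNA2 cells, against 192 and 194 CPM in Rosa26 cells. The 6 groups fell into an order without overlap, with IFNγ-treated sgRNA1 cells lowest and vehicle-treated Rosa26 cells highest. The Cop1 difference was -0.55 ± 0.032 with IFNγ (SE, edgeR adjusted p = 4.58e-18) and -0.35 ± 0.031 in vehicle (edgeR adjusted p = 4.52e-12). IFNγ lowered it by a log2 change of -0.22 ± 0.027 in Cop1-guide cells (edgeR adjusted p = 5.78e-09), and the change in Rosa26 cells was -0.02 ± 0.036 (edgeR adjusted p = 0.739). The interaction of -0.20 ± 0.045 was called (edgeR adjusted p = 0.00313), though not with libraries summed by population (edgeR adjusted p = 0.999). Dusp4 and Dusp6 therefore differed in opposite directions between the same cells, and across the 12 libraries their log2 levels had a Pearson r of -0.810, the lowest of the 45 pairs among the 10 genes.

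Dusp2 (PAC-1), a nuclear phosphatase best known from lymphocytes, lies at chr2:127336159-127338376 on the plus strand. With IFNγ it measured 1.62 and 1.87 CPM in sgRNA1 cells and 0.995 and 1.42 CPM in sgRNA2 cells, against 1.54 and 1.54 CPM in Rosa26 cells. The vehicle values were 0.951 and 1.17 CPM in sgRNA1 cells and 1.15 and 0.954 CPM in sgRNA2 cells, against 0.707 and 0.756 CPM in Rosa26 cells. Both Rosa26 vehicle libraries were the lowest of the 12, and groups overlapped with IFNγ. The response of Rosa26 cells, 1.07 ± 0.40 on the log2 scale, passed narrowly (edgeR adjusted p = 0.0376) and was lost without any 1 of the 4 Rosa26 libraries and in DESeq2, with adjusted p between 0.0330 and 0.172 over all settings. The response of Cop1-guide cells was 0.46 ± 0.27 (edgeR adjusted p = 0.202), and the 2 responses did not differ beyond the error (interaction -0.61 ± 0.49, edgeR adjusted p = 0.566).

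The 3 Sprouty genes rose with Cop1 loss in vehicle, and with IFNγ Spry1 and Spry2 passed the test, with all 3 differences positive and no called interaction. Spry2, at chr14:105891947-105896819 on the minus strand, encodes a membrane-anchored inhibitor of receptor signalling to ERK. With IFNγ it measured 54.8 and 47.9 CPM in sgRNA1 cells and 43.6 and 48.8 CPM in sgRNA2 cells, against 42.9 and 38.8 CPM in Rosa26 cells. In vehicle it measured 58.8 and 56.8 CPM in sgRNA1 cells and 59.0 and 52.7 CPM in sgRNA2 cells, against 39.8 and 43.6 CPM in Rosa26 cells. Cop1-guide libraries were above both Rosa26 libraries in each treatment, with a gap of under 1 CPM with IFNγ. The Cop1 difference was 0.25 ± 0.064 with IFNγ (SE, edgeR adjusted p = 0.00142) and 0.45 ± 0.063 in vehicle (edgeR adjusted p = 2.34e-07), and the first was lost without the second IFNγ library of Rosa26 cells (edgeR adjusted p = 0.0882) and with libraries summed by population (0.0928). IFNγ lowered Spry2 by -0.22 ± 0.050 in Cop1-guide cells (edgeR adjusted p = 0.000423), and its change in Rosa26 cells was -0.03 ± 0.074 (edgeR adjusted p = 0.816). The difference of these responses, -0.19 ± 0.090, was not called (edgeR adjusted p = 0.227).

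Spry4, another Sprouty inhibitor of RAF activation, measured 18.2 and 16.9 CPM in sgRNA1 cells and 17.6 and 15.1 CPM in sgRNA2 cells with IFNγ, against 15.3 and 16.1 CPM in Rosa26 cells. Vehicle-treated cells had 19.4 and 21.3 CPM in sgRNA1 cells and 19.5 and 20.9 CPM in sgRNA2 cells, against 13.0 and 15.2 CPM in Rosa26 cells. The vehicle groups did not overlap, and the IFNγ groups did. Spry4 differed by 0.12 ± 0.093 with IFNγ (SE, edgeR adjusted p = 0.341) and 0.52 ± 0.093 in vehicle (edgeR adjusted p = 1.66e-05). IFNγ changed Spry4 by -0.25 ± 0.073 in Cop1-guide cells, which was called (edgeR adjusted p = 0.00596), and by 0.15 ± 0.11 in Rosa26 cells, which was not (edgeR adjusted p = 0.303).

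Spry1 was the gene of the 10 that fell most with IFNγ in both kinds of cells. It lies at chr3:37639947-37644598 on the plus strand and shares 710 bp, 24.4% of its exonic length, with the opposite-strand gene Gm42922, which has no line in the count table. With IFNγ it measured 18.2 and 18.3 CPM in sgRNA1 cells and 18.5 and 16.4 CPM in sgRNA2 cells, against 14.6 and 15.9 CPM in Rosa26 cells. In vehicle it measured 32.4 and 34.2 CPM in sgRNA1 cells and 35.3 and 40.0 CPM in sgRNA2 cells, against 28.3 and 29.8 CPM in Rosa26 cells. All 6 IFNγ libraries were below all 6 vehicle libraries, and within each treatment Rosa26 cells were lowest. The response was -0.99 ± 0.062 in Cop1-guide cells (SE, edgeR adjusted p = 1.95e-17) and -0.93 ± 0.091 in Rosa26 cells (edgeR adjusted p = 2.50e-11), with an interaction of -0.05 ± 0.11 (edgeR adjusted p = 0.863). The Cop1 difference was 0.23 ± 0.085 with IFNγ (edgeR adjusted p = 0.0267) and 0.28 ± 0.072 in vehicle (edgeR adjusted p = 0.00150). The difference with IFNγ was lost in DESeq2, with libraries summed by population (edgeR adjusted p = 0.204), without the first IFNγ library of Rosa26 cells and without the first IFNγ library of sgRNA2 cells, with adjusted p between 0.0178 and 0.252 over all settings.

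The 2 Spred genes were not called for Cop1 loss in either treatment. Spred1, at chr2:117121374-117182279 on the plus strand, measured 127 and 122 CPM in sgRNA1 cells and 119.8 and 115 CPM in sgRNA2 cells with IFNγ, against 114 and 117 CPM in Rosa26 cells. The vehicle values were 124 and 126 CPM in sgRNA1 cells and 121 and 125 CPM in sgRNA2 cells, against 119 and 119 CPM in Rosa26 cells. Its groups overlapped with IFNγ and were apart by a few CPM in vehicle. Spred1 differed between Cop1-guide and Rosa26 cells by 0.07 ± 0.037 with IFNγ (SE, edgeR adjusted p = 0.157) and 0.06 ± 0.036 in vehicle (edgeR adjusted p = 0.203). Spred2, at chr11:19924375-20024026 on the plus strand, measured 103 and 101 CPM in sgRNA1 cells and 99.0 and 104 CPM in sgRNA2 cells with IFNγ, against 92.7 and 101 CPM in Rosa26 cells. In vehicle it measured 99.9 and 105 CPM in sgRNA1 cells and 96.7 and 100.2 CPM in sgRNA2 cells, against 105 and 107 CPM in Rosa26 cells. Cop1-guide libraries were below both Rosa26 libraries in vehicle and overlapped them with IFNγ. The Cop1 difference was 0.07 ± 0.042 with IFNγ (edgeR adjusted p = 0.158) and -0.08 ± 0.041 in vehicle (edgeR adjusted p = 0.111). Spred2 fell with IFNγ in Rosa26 cells by 0.14 on the log2 scale, with an SE of 0.048 (edgeR adjusted p = 0.0241). That call was lost in DESeq2, without either vehicle library of Rosa26 cells and without their first IFNγ library, with adjusted p of 0.0683 to 0.361 among the last 3. The Cop1 difference of Spred2 with IFNγ was called without the second IFNγ library of Rosa26 cells (0.13, edgeR adjusted p = 0.0499).

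Both guides were then set against Rosa26 on their own, and since they share the Rosa26 libraries their values are only set side by side. With IFNγ, sgRNA1 cells had 4 of the 10 genes called higher and 3 lower, where 38.2% of all genes were called, and sgRNA2 cells had 1 higher and 3 lower, where 32.9% were called. Dusp6 changed by 0.59 with sgRNA1 and 0.55 with sgRNA2, Dusp1 by -0.67 and -0.76, Dusp4 by -0.66 and -0.43, and Dusp5 by -0.14 and -0.39. The genes called higher with sgRNA1 were Dusp6, Spry2, Spry1 and Spred1, and with sgRNA2 Dusp6. Without the first IFNγ library of Rosa26 cells, without the first of sgRNA1 cells, or in DESeq2, the total called for sgRNA1 was 4, and each time Dusp5, Spry1 and Spred1 were the genes lost. Spry2 was called with sgRNA2 too without the first IFNγ library of Rosa26 cells (edgeR adjusted p = 0.0400) or of sgRNA2 cells (0.0306). In vehicle, sgRNA1 cells had 5 called higher and 1 lower, where 33.4% of all genes were called, and sgRNA2 cells had 6 higher and 1 lower, where 29.2% were called. The genes were the same except for Spry1, which changed by 0.19 with sgRNA1 (edgeR adjusted p = 0.0626, or 0.0483 without the second IFNγ library of sgRNA2 cells) and by 0.38 with sgRNA2 (edgeR adjusted p = 0.000423).

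A direct test of sgRNA2 over sgRNA1 called 2 of the 10 feedback genes with IFNγ and 1 of the 10 in vehicle. With IFNγ Dusp4 was higher in sgRNA2 cells by 0.23 ± 0.038 on the log2 scale (SE, edgeR adjusted p = 4.78e-05) and Dusp5 was lower, by -0.24 ± 0.060 (edgeR adjusted p = 0.00628), where 9.41% of all genes were called. In vehicle Dusp6 was lower in sgRNA2 cells, by -0.12 ± 0.032 (edgeR adjusted p = 0.0188), where 5.99% of all genes were called. That call was lost without the first vehicle library of sgRNA1 cells (log2 change -0.10, edgeR adjusted p = 0.243) or of sgRNA2 cells (log2 change -0.11). The Dusp5 call was lost without the second IFNγ library of sgRNA1 cells (edgeR adjusted p = 0.142) or the first of sgRNA2 cells (0.102). Cop1 itself was lower in sgRNA2 cells in both treatments, with log2 changes of -0.88 with IFNγ and -0.82 in vehicle. The difference from Rosa26 was larger in size in sgRNA1 cells for Dusp4 with IFNγ and Dusp6 in vehicle, and in sgRNA2 cells for Dusp5 with IFNγ. Whether these differences follow the level of Cop1 was not tested.

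Genes with the most similar profile over the 12 libraries were taken from 9110 genes whose mean over the libraries was 3 or more in log2 CPM, as a description of libraries that share their groups. Dusp6 was nearest to Psma5 (r = 0.987), a proteasome subunit, Cx3cl1 (r = 0.985), a chemokine, and Cct3 (r = 0.981), a chaperonin subunit. Dusp4 was nearest to Ccn2 (r = 0.983), which encodes a secreted matrix-associated protein, Eif2ak3 (r = 0.983), the kinase PERK, and Lamp1 (r = 0.981), a lysosomal membrane protein. Dusp5 was nearest to Map7d1 (r = 0.958), Ackr3 (r = 0.891) and Wipi2 (r = 0.891), and Spry2 to Dynll1 (r = 0.959), Cdkn1b (r = 0.957) and Camkk1 (r = 0.956). For Spry4 the values were lower, with 0.881 for Slc8b1, 0.869 for Usp28 and 0.866 for Sh3bgrl2, and for Spred2 they were 0.872 for Epop, 0.798 for Lcmt1 and 0.788 for Wbp1l. None of these nearest genes was another of the 10. The search was run only for Dusp6, Dusp4, Dusp5, Spry2, Spry4 and Spred2, and Dusp2 lay under the level required of a match. Among the 10 the highest correlations were 0.826 for Dusp2 with Dusp5, 0.801 for Spry2 with Spry4 and 0.799 for Dusp1 with Dusp5.

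Genes of the kinases were tested as lists, beside 40.6% of all genes called with IFNγ (19.8% higher, 20.7% lower) and 35.8% in vehicle (16.6% higher, 19.2% lower). These lists and those below were chosen with earlier results of these data known, so their counts are descriptions only. Of 12 genes of the RAS, RAF, MEK and ERK core, 4 were higher and 1 lower in Cop1-guide than in Rosa26 cells with IFNγ, with a median of 0.03, and 2 higher and 1 lower in vehicle, with a median of 0.03. The scaffold gene Ksr1 rose by 0.33 ± 0.070 with IFNγ (SE, edgeR adjusted p = 0.000198) and by 0.28 ± 0.071 in vehicle (edgeR adjusted p = 0.00129). Mapk3, the gene of ERK1, changed with IFNγ by -0.29 ± 0.037 in Cop1-guide cells (edgeR adjusted p = 1.13e-08) and by -0.49 ± 0.052 in Rosa26 cells (edgeR adjusted p = 1.41e-10). Of 14 genes of the JNK and p38 kinases, 6 passed with IFNγ, each of them higher, with a median of 0.11 over the list, and 5 passed in vehicle, each higher, with a median of 0.12. The p38 kinase gene Mapk13 was higher by 0.54 ± 0.051 with IFNγ (edgeR adjusted p = 1.25e-11) and by 0.53 ± 0.051 in vehicle (edgeR adjusted p = 2.13e-11).

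Upstream of RAS, receptor and adaptor genes went both ways in Cop1-guide cells, with more called lower than higher. Of 13 receptors and adaptors, 3 were higher and 6 lower with IFNγ, with a median of -0.02, and 2 higher and 4 lower in vehicle, with a median of -0.11. Of all genes 20.7% were lower with IFNγ and 19.2% in vehicle. Erbb3, a receptor of the EGFR family, changed by -0.51 ± 0.076 with IFNγ (SE, edgeR adjusted p = 5.65e-07) and -0.66 ± 0.073 in vehicle (edgeR adjusted p = 8.30e-10). Fgfr1, a fibroblast growth factor receptor, changed by -1.56 ± 0.23 in vehicle (edgeR adjusted p = 4.37e-07), at levels of 1.26 to 2.26 CPM in Cop1-guide cells and 4.85 and 5.20 CPM in Rosa26 cells. Of 7 tested RAS GTPase-activating proteins, 2 passed with IFNγ, both higher, with a median of 0.03 over the list, and 1 was higher and 3 lower in vehicle, with a median of -0.10, among them Nf1, the gene of neurofibromin, at -0.27 ± 0.060 (edgeR adjusted p = 0.000358). Of all genes 40.6% were called with IFNγ and 35.8% in vehicle. With IFNγ, sgRNA1 cells on their own had 3 of the 13 receptors and adaptors called higher and 6 lower, with a median of -0.11. The shares of all genes were 18.9% higher and 19.3% lower. With IFNγ, sgRNA2 cells on their own had 1 of the 13 called higher and 3 lower, with a median of 0.05, so the medians of the guides had opposite signs. Of all genes 16.6% were then higher and 16.2% lower. The 1 higher was the receptor gene Met, at 0.18 ± 0.035 (SE, edgeR adjusted p = 0.000101). The 3 lower were Erbb3 at -0.42 and the adaptor genes Gab1 at -0.60 and Frs2 at -0.18.

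The other DUSP, Sprouty and Spred genes moved in both directions. Of 10 tested, 2 were higher and 5 lower in Cop1-guide than in Rosa26 cells with IFNγ, with a median of -0.20, and 3 higher and 4 lower in vehicle, with a median of -0.09. The shares of all genes called were 40.6% with IFNγ and 35.8% in vehicle, 32.8% for IFNγ in Rosa26 cells and 5.74% for the interaction. Dusp16, a phosphatase of JNK and p38, changed by -0.37 ± 0.046 with IFNγ (SE, edgeR adjusted p = 1.79e-08) and by -0.25 ± 0.049 in vehicle (edgeR adjusted p = 4.96e-05). Spred3 changed by 0.33 ± 0.077 with IFNγ (edgeR adjusted p = 0.000469) and 0.39 ± 0.079 in vehicle (edgeR adjusted p = 9.57e-05). In Rosa26 cells IFNγ raised 4 of these genes and lowered 1, with a median of 0.18, among them Dusp10 at 0.38 ± 0.073 (edgeR adjusted p = 5.82e-05). The interaction was negative and called for 2, Dusp10 at -0.44 ± 0.090 (edgeR adjusted p = 0.00121) and Dusp14 at -0.34 ± 0.099 (edgeR adjusted p = 0.0303).

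Genes that ERK activity is known to induce rapidly, and ETS genes, included many whose response to IFNγ was lower in Cop1-guide than in Rosa26 cells. Of 17 tested, 5 were higher and 8 lower in Cop1-guide than in Rosa26 cells with IFNγ, with a median of -0.14, and 7 higher and 4 lower in vehicle, with a median of 0.09, where 40.6% and 35.8% of all genes were called. The interaction was called for 11 of the 17, 1 positive and 10 negative, with a median of -0.22, where 5.74% of all genes were called, 3.38% positive and 2.36% negative. The list was chosen with earlier results of these data known, so this count is a description and no independent test. Egr1, an immediate early transcription factor, measured 21.1 and 19.1 CPM in sgRNA1 cells and 27.1 and 27.5 CPM in sgRNA2 cells with IFNγ, against 66.9 and 67.1 CPM in Rosa26 cells. In vehicle Egr1 measured 11.4 and 11.7 CPM in sgRNA1 cells and 13.2 and 12.1 CPM in sgRNA2 cells, against 16.5 and 14.4 CPM in Rosa26 cells. Egr1 was thus raised by IFNγ in both kinds of cells, by 0.96 ± 0.067 in Cop1-guide cells and 2.12 ± 0.083 in Rosa26 cells, and the difference of -1.16 ± 0.11 was called (SE, edgeR adjusted p = 2.30e-10). Fos, present at 0.481 to 7.65 CPM, had an interaction of -1.83 ± 0.38 (edgeR adjusted p = 0.00130). Junb, an AP-1 subunit, had one of -0.51 ± 0.039 (edgeR adjusted p = 1.00e-12), and Ier3, an early response gene, one of -0.55 ± 0.036 (edgeR adjusted p = 1.51e-14).

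Not every gene of this output list was lower in Cop1-guide cells. Hbegf, an EGFR ligand, was higher by 0.56 ± 0.030 with IFNγ (SE, edgeR adjusted p = 3.76e-19) and by 0.78 ± 0.031 in vehicle (edgeR adjusted p = 1.68e-23), as was Plaur, the urokinase receptor, by 0.32 ± 0.031 and 0.59 ± 0.032. The cyclin gene Ccnd1 was higher by 0.41 ± 0.021 with IFNγ and 0.33 ± 0.021 in vehicle. The ETS genes Etv4 and Etv5 changed by 0.11 ± 0.047 (edgeR adjusted p = 0.0475) and -0.15 ± 0.061 (edgeR adjusted p = 0.0517) with IFNγ, and by 0.01 ± 0.045 (edgeR adjusted p = 0.932) and -0.25 ± 0.058 (edgeR adjusted p = 0.000834) in vehicle.

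**Figure D4:**
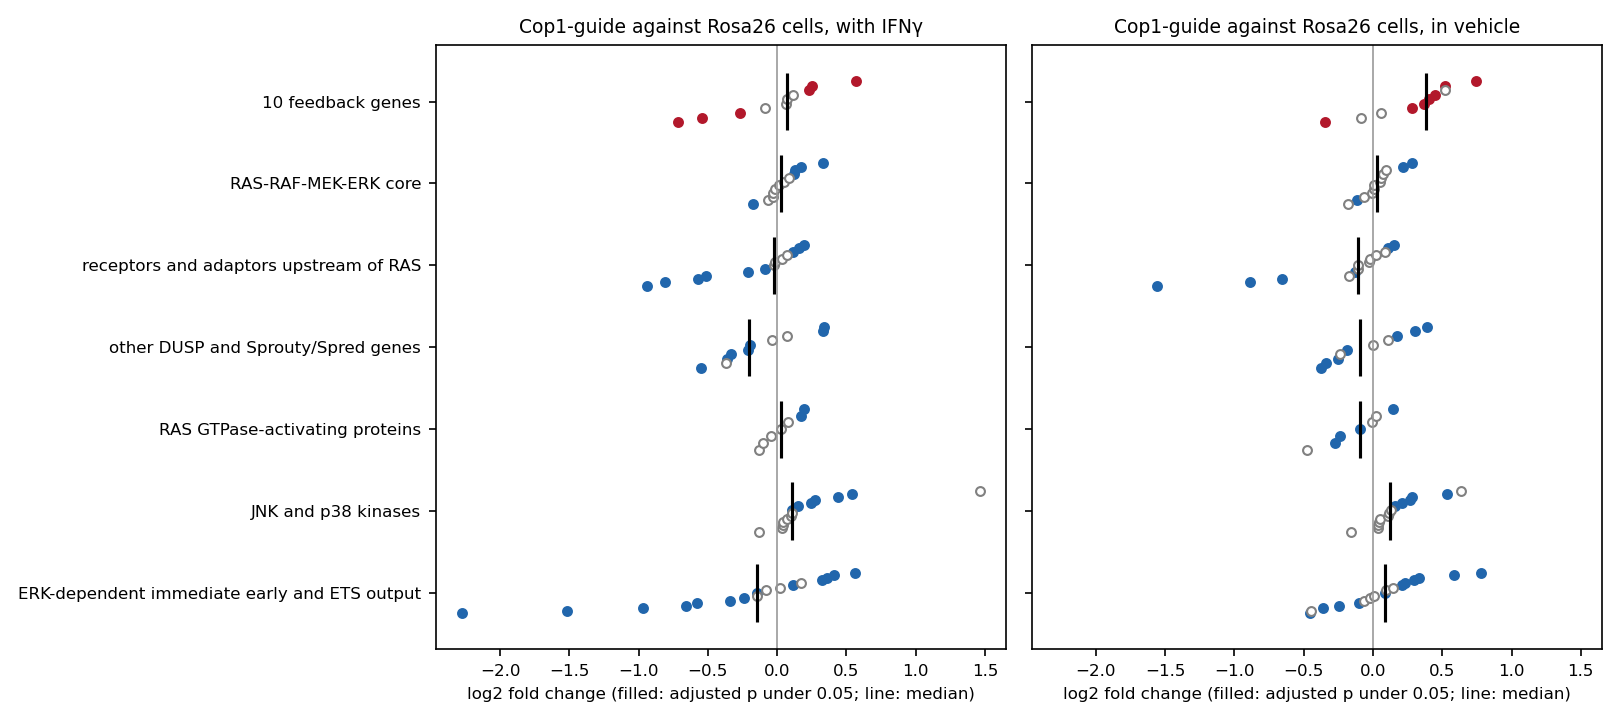
Log2 fold change of Cop1-guide over Rosa26 cells on the horizontal axis, with IFNγ on the left and in vehicle on the right, 1 point per tested gene, for the 10 feedback genes (red) and 6 lists of related genes (blue); filled points have an adjusted p under 0.05 and the vertical line is the list's median. In vehicle the median of the feedback genes is 0.39 and those of the other lists lie between -0.11 and 0.12, and with IFNγ the feedback genes spread to both sides of 0.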

How the data were processed

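Per the labels' protocols, TruSeq libraries were made from total RNA. The submitters' processing notes name STAR 2.4.0, HTSeq, DESeq2 1.10 and the build mm10. The authors deposited 1 table of unnormalized counts, whole numbers for each gene in each library. The sources used here do not give the strand setting, the annotation or the treatment of multiply aligned reads. A row of totals, which equalled the gene counts (100% of them) in 11 libraries and exceeded them by 360 counts in 1, was left out. The 10 genes and all lists were chosen with earlier results of these data known.

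The quasi-likelihood F test of edgeR 4.0.16, run in R 4.3.3, was applied to these counts with TMM scaling, robust empirical Bayes and 1 model with 6 group means (6 residual degrees of freedom). The low-count filter used a minimum count of 10 and a total of 15. Cop1 loss is the mean of both guides against Rosa26. P-values were adjusted by Benjamini-Hochberg over 11904 genes and called under 0.05; the SE is the absolute log2 change divided by the root of F. The procedure was tested on simulated counts. DESeq2 1.42.0 and other settings are given at the end. Exonic length, for CPM per kilobase, was the union of exons in GENCODE vM21 (GRCm38). All 10 genes and Cop1 are named, though not in every comparison. From each list of related genes only a selection is named. It leaves out some genes with the smallest p, among them Rras2, Map2k2, Dusp18 and Dab2ip. Reads carry no molecular identifiers, and depth limits Dusp2 most. Replicates differed by more than sampling noise in every group (chi-square over its degrees of freedom, 2.33 to 4.21).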

Additional observations from a re-analysis of the deposited data

Results flagged for a closer look

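Of the 10 feedback genes, 4 answered IFNγ differently in Cop1-guide and Rosa26 cells by a test of the difference itself, the interaction term of the edgeR model over all 11904 genes. The difference was -1.08 on the log2 scale for Dusp1, -0.67 for Dusp5, -0.20 for Dusp4 and -0.17 for Dusp6. For Dusp1 and Dusp5 the response of Cop1-guide cells was -0.09 and 0.02, against 0.99 and 0.69 in Rosa26 cells. For Dusp6 both responses were called and positive, 0.64 in Cop1-guide and 0.81 in Rosa26 cells, and for Dusp4 the responses were -0.22 and -0.02. The Dusp6 call was lost without the second vehicle library of Rosa26 cells, where the value was -0.16. With libraries summed by population none of the 4 was called. The edgeR adjusted p was then 0.0775 for Dusp1, 0.427 for Dusp5 and 0.999 for both Dusp4 and Dusp6. Summed epithelial and, in vehicle, fibroblast markers moved with the groups, and their part in these differences was not tested.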

How the results depend on the processing

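Limits. Each group had 2 libraries and Cop1 loss rests on 2 guide populations against 1 control population, so a property of the Rosa26 population cannot be told apart from the effect of the guides. In the fit on summed libraries that follows, Rosa26 cells had 1 summed library per treatment. The spread in that fit came from the 2 guides alone, also for IFNγ in Rosa26 cells. Genes without any difference pass an unadjusted p under 0.05 at a rate of 0.05. With both libraries of a group summed, so that the guides were the replicates of Cop1 loss, edgeR called 1443 genes with IFNγ, 902 in vehicle, 1399 for IFNγ in Cop1-guide cells, 1125 for IFNγ in Rosa26 cells and 0 for the interaction (563 at an unadjusted p under 0.05). The counts of feedback genes were then 3 with IFNγ, 5 in vehicle, 2 for IFNγ in Cop1-guide cells, 4 for IFNγ in Rosa26 cells and 0 for the interaction (3 at an unadjusted p under 0.05), and Dusp6 stayed called in the first 4. In that fit Spry1 and Spry2 with IFNγ had adjusted p of 0.204 and 0.0928, Spry1 in vehicle had 0.126, and for IFNγ in Cop1-guide cells Dusp4 had 0.103, Spry2 0.0844 and Spry4 0.113.

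DESeq2 called 434 genes for the interaction, 460 for sgRNA2 over sgRNA1 in vehicle and 735 with IFNγ, and 4 feedback genes for sgRNA1 over Rosa26 with IFNγ. With only the groups compared in the fit, sgRNA2 over sgRNA1 in vehicle gave 464 genes and 0 feedback genes (2 at an unadjusted p under 0.05 in edgeR, 1 called by DESeq2). The stricter low-count filter, which removed Dusp2, turned the interaction of Spred1 to -0.011. DESeq2 size factors and non-robust empirical Bayes changed none of the 104 calls of single genes, direction or side of the threshold.

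Replicate numbers did not pair the libraries: over 15 pairs of groups the correlation of same-numbered deviations was -0.03 to 0.04. With the replicate block none of the 104 calls changed, and 6 and 7 feedback genes were called for Cop1 loss with IFNγ and in vehicle and 4 for the interaction.

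Leaving out each of the 12 libraries gave 348 to 733 genes with a called interaction, lowest without the first IFNγ library (348) or either vehicle library (453 and 353) of Rosa26 cells. For sgRNA2 over sgRNA1 it gave 349 to 686 genes and 0 to 1 feedback gene in vehicle, and 422 to 1264 genes and 1 to 2 feedback genes with IFNγ, the lowest without a library of the guides compared. For sgRNA1 over Rosa26 with IFNγ it gave 4 to 7 feedback genes. Directions turned for uncalled values. These were Dusp2 (-0.23 to 0.032) for Cop1 loss with IFNγ, Spry2 (-0.10 to 0.044) for IFNγ in Rosa26 cells, and Dusp5 (-0.0073 to 0.055) and Spred2 (-0.0030 to 0.040) for IFNγ in Cop1-guide cells. They were also Spry1 (-0.12 to 0.0059) and Spred1 (-0.020 to 0.029) for the interaction, and Spred1 (-0.0040 to 0.050) and Spry4 (-0.057 to 0.16) for sgRNA2 over Rosa26 with IFNγ. The interaction of Spry4 was called in 5 settings, with adjusted p between 0.0352 and 0.999.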
